A study of Homo sapiens with 12 samples.

Results

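Kinesins are motor proteins that use ATP to step along microtubules. The kinesin genes described here were the protein-coding genes whose symbol is KIF or KIFC followed by a digit. This rule found 43 of the 58735 genes in the deposited count table. They were separated by known role into 15 mitotic kinesins, 17 transport kinesins and 10 ciliary and other kinesins. The last gene found by the rule, KIF1BP, encodes a protein that binds kinesins and is not itself a motor. Another 7 genes with matching names were antisense RNAs, a lincRNA or pseudogenes and were not members.

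The libraries were poly(A) RNA-seq of HEK293T, a human embryonic kidney cell line that expresses the SV40 large T antigen, and were made to see which transcripts changed with 2 compounds used to capture RNA-binding proteins. There were 4 groups of 3 independent replicates of this single wild-type line. DMSO cells received vehicle, CEP cells were given AHL-Pu-1, a purine that carries an electrophile and an alkyne handle, at 25 µM for 1 h, 4SU cells had 100 µM 4-thiouridine for 16 h, and CEP+4SU cells received both. 4SU is a uridine analog that enters newly made RNA and crosslinks to bound protein under UV light, and CEP is a probe that reacts with proteins in living cells. The labels give all 12 libraries 1 protocol, in which cells were irradiated before CEP was added. They do not say whether the cells without 4SU were irradiated, and their protocol text gives the CEP concentration in mM where the design text gives µM. Nothing was deleted or expressed in any group, so there was no targeted gene to check.

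Total counts ran from 16569114 to 24644734 per library, and kinesin genes took 0.287% to 0.319% of them. The second replicates of CEP and of CEP+4SU stood apart, with 22230 and 22627 genes detected against at least 24376 in the other 10 libraries, so the results they moved most are also given without them. The neuronal and embryonic genes that mark HEK293T were present, with LIN28B, NEFM, NEFL and INA between 19.4 and 40.9 FPKM. PAX2 and GATA3 were low, at 0.832 to 2.92 FPKM. None of 9 markers of other cell types was above 0.304 FPKM, and CD3E, INS and TYR were at 0 counts in all 12 libraries.

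Most kinesins carry a motor domain at the N-terminus and walk toward the plus end of the microtubule, while the C-terminal motors of the KIFC group walk toward the minus end. Transport kinesins carry vesicles, mitochondria and mRNA granules along interphase microtubules and along the axons and dendrites of neurons. Mitotic kinesins separate the spindle poles, move or depolymerize chromosome-bound microtubules and build the midbody at cytokinesis, and their mRNAs are made mainly in G2 and M phase.

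Most promoters of the mitotic kinesins shared letters that the choice of genes did not use. RefSeq promoters (GRCh38.p14, 250 bases before to 50 bases after the start) were given for 35 of the 43 genes, 44 promoters in all. The 8 genes with no entry were KIFC3, KIF21B, KIF19, KIFC2, KIF26B, KIF13B, KIF27 and KIF5A. The hexamer TTTGAA is the core of the cell cycle genes homology region, a known element of genes expressed in G2 and M phase, and CCAAT is the core of the box that often lies upstream of it. Both were searched on either strand, where TTTGAA reads TTCAAA and CCAAT reads ATTGG. These motifs do not overlap each other in the sequences shown. In the following stretches of 120 bases around the start, written 5′ to 3′ on the strand of the gene, capitals mark these matches. The mitotic promoters KIF11, KIF14, KIF15, KIF18A, KIF23 and KIF4A are shown because each holds TTTGAA. The transport promoters KIF5B and KIF3A are shown because theirs do not within this stretch, although KIF5B holds it farther upstream, at -140 from the start. They were picked by this outcome, so their contrast is not a result about the classes.
KIF11 (chr10:92593040-92593159, plus strand): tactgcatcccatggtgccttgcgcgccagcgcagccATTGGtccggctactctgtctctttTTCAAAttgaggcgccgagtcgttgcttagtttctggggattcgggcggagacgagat
KIF14 (chr1:200620722-200620841, minus strand): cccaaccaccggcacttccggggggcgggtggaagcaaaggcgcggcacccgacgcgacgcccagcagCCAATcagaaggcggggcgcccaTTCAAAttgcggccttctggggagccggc
KIF15 (chr3:44761704-44761823, plus strand): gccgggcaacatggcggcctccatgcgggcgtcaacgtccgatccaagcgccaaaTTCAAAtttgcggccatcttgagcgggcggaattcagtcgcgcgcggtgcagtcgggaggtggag
KIF18A (chr11:28108127-28108246, minus strand): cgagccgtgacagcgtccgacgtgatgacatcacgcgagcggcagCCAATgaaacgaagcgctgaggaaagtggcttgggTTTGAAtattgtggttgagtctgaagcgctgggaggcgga
KIF23 (chr15:69414259-69414378, plus strand): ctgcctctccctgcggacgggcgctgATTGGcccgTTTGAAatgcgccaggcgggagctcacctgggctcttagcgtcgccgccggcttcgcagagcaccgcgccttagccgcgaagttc
KIF4A (chrX:70290014-70290133, plus strand): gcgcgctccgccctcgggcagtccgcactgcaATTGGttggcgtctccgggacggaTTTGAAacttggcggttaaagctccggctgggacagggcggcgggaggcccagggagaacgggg
KIF5B (chr10:32056396-32056515, minus strand): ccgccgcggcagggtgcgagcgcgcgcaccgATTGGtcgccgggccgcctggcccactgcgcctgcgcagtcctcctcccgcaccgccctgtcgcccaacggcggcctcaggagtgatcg
KIF3A (chr5:132737517-132737636, minus strand): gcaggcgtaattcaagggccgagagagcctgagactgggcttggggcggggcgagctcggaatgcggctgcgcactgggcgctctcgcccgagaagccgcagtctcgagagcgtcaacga

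Within 60 bases of the start, TTTGAA was in 10 of 16 promoters of mitotic kinesins, 1 for each of KIF4A, KIF4B, KIF11, KIF14, KIF15, KIF18A, KIF18B, KIF20B, KIF23 and KIFC1. It was in 0 of 17 promoters of transport kinesins, in 0 of 10 of ciliary and other kinesins, and in 5.03% of all 35116 promoters in the table. Over the whole window it was in 10 of 16, 1 of 17, 0 of 10 and 15.2%, respectively. The 1 transport promoter was that of KIF5B. The mitotic kinesins KIF2A, KIF2B, KIF2C, KIF20A and KIF22 had no TTTGAA in this window. CCAAT over the whole window was in 11 of 16 mitotic promoters, 5 of 17 transport promoters, 4 of 10 of ciliary and other kinesins and 34.6% of all promoters. The variant TTCGAA was in 2 of 16 mitotic promoters, both of KIF22, and in 1.45% of all. It was also in 1 of 10 promoters of ciliary and other kinesins, that of KIF24, and in 0 of 17 of transport kinesins. The GC box core GGGCGG did not separate the classes, being in 14 of 16 mitotic, 14 of 17 transport and 15786 of all 35116 promoters. A match describes these letters and is not a measured binding site.

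Levels are given as FPKM, the deposited read count scaled to gene length and library size, which allows a comparison between genes. It rests on 1 length per gene, such as 16695 bases for KIF1A and 8580 for KIF1C. Sums and shares of FPKM depend on these lengths. Of the 43 genes, 41 passed the filter on low counts. KIF1BP is among these 41, and counts over all kinesins from here on include it. KIF2B, a microtubule depolymerase close to KIF2A and KIF2C, had 0 counts in all 12 libraries, and the ciliary kinesin KIF19 reached at most 17 counts. Summed over each class, mitotic kinesins came to between 268 and 302 FPKM, transport kinesins to between 161 and 180 FPKM, and ciliary and other kinesins to between 25.4 and 34.1 FPKM.

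The mitotic class was led by KIF11, KIF22 and KIF2C. KIF11, the bipolar motor that slides spindle poles apart (chr10:92593286-92655395), was at 37.9, 36.2 and 35.0 FPKM in DMSO, 40.2, 42.6 and 41.4 in CEP, 36.5, 42.8 and 40.4 in 4SU, and 40.6, 50.9 and 40.9 in CEP+4SU. All 6 libraries that received CEP were above all 3 DMSO libraries, and the 4SU libraries spanned both. KIF22, a chromokinesin that pushes chromosome arms away from the poles (chr16:29790719-29805385), was at 34.7, 32.9 and 32.2 FPKM in DMSO, 32.7, 29.4 and 28.5 in CEP, 35.5, 28.7 and 30.9 in 4SU, and 32.4, 27.5 and 33.1 in CEP+4SU. Its groups overlapped. KIF2C, a depolymerase of centromeric microtubules (chr1:44739818-44767767), was at 31.2, 29.02 and 28.3 FPKM in DMSO, 29.2, 29.1 and 27.7 in CEP, 30.03, 31.2 and 31.7 in 4SU, and 30.5, 27.9 and 31.5 in CEP+4SU, and its groups overlapped too.

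Below these came KIF4A, a chromokinesin of the central spindle (23.8 to 30.5 FPKM), KIF20A, which carries the chromosomal passenger complex to the midzone (23.5 to 29.6 FPKM), KIF2A, a depolymerase at spindle poles (21.8 to 29.5 FPKM), and KIFC1, the minus-end motor that clusters centrosomes (19.0 to 23.2 FPKM). KIF18A, which dampens chromosome oscillation by acting at microtubule plus ends, ran from 5.81 to 9.09 FPKM. KIF4B, an intronless copy of KIF4A, had 2 to 18 counts per library. Because 606 of its 4329 windows of 50 bases occur unchanged in KIF4A transcripts, how its reads were assigned is uncertain.

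Transport kinesins were led by KIF5B, the ubiquitous heavy chain of kinesin-1 (chr10:32009010-32056431). It was at 42.1, 41.7 and 41.6 FPKM in DMSO, 47.1, 51.8 and 46.3 in CEP, 40.3, 43.7 and 42.4 in 4SU, and 42.4, 49.0 and 47.4 in CEP+4SU. Every library with CEP was above every DMSO library. KIF1C, which carries dense-core vesicles and mRNAs (chr17:4997948-5028401), was at 31.6, 28.5 and 31.3 FPKM in DMSO, 32.8, 28.2 and 26.9 in CEP, 26.8, 26.5 and 26.6 in 4SU, and 28.7, 24.1 and 27.4 in CEP+4SU. The 3 libraries with 4SU alone were below all DMSO libraries. KIF3B, a subunit of the heterotrimeric kinesin-2 that also drives intraflagellar transport (chr20:32277664-32335011), was at 15.2, 15.5 and 15.7 FPKM in DMSO, 16.0, 17.8 and 14.97 in CEP, 15.3, 16.0 and 15.7 in 4SU, and 16.2, 16.7 and 16.7 in CEP+4SU, so that only the CEP+4SU libraries were all above DMSO.

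Within kinesin-1 the usual neuronal forms were the minor ones. KIF5B gave 77.7% to 82.3% of the FPKM summed over the 3 heavy chain genes, KIF5C 9.42% to 11.96% and KIF5A 6.30% to 11.8%. Of the kinesin-3 genes KIF1A, KIF1B and KIF1C, the neuronal KIF1A gave 23.8% to 29.03%. Of the kinesin-8 genes, KIF18B gave 66.2% to 76.3% and KIF18A the rest. Among ciliary and other kinesins, KIF7, a regulator of Hedgehog signaling at the tip of the primary cilium, was the highest at 11.1 to 15.6 FPKM, followed by KIF26A, which has lost ATPase activity (6.56 to 11.03 FPKM), and KIF24 (3.21 to 4.04 FPKM). KIF6, KIF9, KIF12, KIF25, KIF26B and KIF27 were at or under 1.70 FPKM. KIF1BP was at 12.1 to 14.3 FPKM.

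Differences between groups were tested on the counts by edgeR's quasi-likelihood test over 17729 genes. A gene passed at a Benjamini-Hochberg adjusted p at or under 0.05. Fold changes from here on are log2 differences in counts after TMM normalization, each with its standard error (SE). These were bulk libraries, so a different share of cells in mitosis and a different amount of RNA per cell cannot be told apart.

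CEP alone changed no kinesin by this test. Of the 41 kinesins tested 0 passed against DMSO, beside 10 of all genes (0.0564%), while DESeq2 called 1, KIFC2, and 0.553% of the 35634 genes in its own fit. At an unadjusted p under 0.05 there were 11, of which 9 were higher and 2 lower, beside 9.79% of all genes higher and 8.77% lower. Of the 14 mitotic kinesins 10 had a positive log2 fold change, with a median of 0.15 against -0.0047 over all genes. An unadjusted p under 0.05 was reached by 6 of these, among them KIF4B, which had at most 18 counts in any library. Without CEP replicate 2 and CEP+4SU replicate 2 this mitotic median was 0.087 and again 10 of 14 were positive. The 17 transport kinesins were split 10 to 7 with a median of 0.08, and the 9 ciliary and other kinesins 2 to 7 with a median of -0.16. The CEP libraries did not overlap DMSO for 9 kinesins that were higher (13.5% of all genes) and 3 that were lower (10.1%). Without CEP replicate 1, 5 kinesins passed (KIF14, KIF20B and KIF5C higher, KIFC2 and KIF26A lower), and 6.61% of all genes passed in that fit.

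The effect of CEP was also taken as the mean of CEP against DMSO and CEP+4SU against 4SU, which uses all 12 libraries. Again 0 of 41 kinesins passed, beside 49 of all genes (0.276%), while DESeq2 called 7, and 4.14% of the genes in its own fit. An unadjusted p under 0.05 was reached by 14 kinesins that were higher and 3 that were lower, beside 13.5% and 10.8% of all genes. Of the 14, 8 were mitotic (KIF4B, with few counts, among them), 4 were transport kinesins, 1 was KIF24 and 1 was KIF1BP. The smallest adjusted p-values were those of KIF14, KIFC2 and KIF20B. Without CEP replicate 1, 9 kinesins passed (11.8% of all genes), and without CEP+4SU replicate 1, 7 did (6.16%).

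KIF14 is a cytokinesis motor that localizes citron kinase to the midbody (chr1:200551497-200620734). It was at 12.2, 12.7 and 12.8 FPKM in DMSO, 14.6, 16.9 and 14.5 in CEP, 12.5, 14.1 and 14.2 in 4SU, and 14.8, 17.4 and 16.2 in CEP+4SU. All 6 libraries with CEP were above all 6 without it, and KIF14 was the only kinesin of which this held (1.21% of all genes were higher in this way, and 0.513% lower). Averaged over 4SU the log2 fold change for CEP was 0.27 (SE 0.0606), with an adjusted p of 0.0560 by edgeR, and without the 2 libraries that stood apart it was 0.21 (adjusted p = 0.116).

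KIF20B, a motor of late cytokinesis (chr10:89701610-89774939), was at 12.3, 13.1 and 12.7 FPKM in DMSO, 14.7, 17.3 and 15.3 in CEP, 11.7, 14.5 and 13.4 in 4SU, and 13.1, 17.1 and 14.5 in CEP+4SU. The CEP libraries were above all DMSO libraries, but the CEP+4SU libraries overlapped those with 4SU alone. Its CEP difference averaged over 4SU was 0.25 (SE 0.0710, edgeR adjusted p = 0.0760), and 0.16 (adjusted p = 0.236) without the 2 libraries that stood apart, which held its highest values. KIF18A and the midbody motor KIF23 followed with log2 fold changes of 0.26 (SE 0.0794) and 0.21 (SE 0.0615), and did not pass either. Without those 2 libraries they were at 0.18 and 0.14.

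KIFC2, a C-terminal motor known from neurons (chr8:144466043-144474202), had the largest negative value among transport kinesins. It was at 7.72, 9.58 and 9.18 FPKM in DMSO, 7.16, 6.17 and 5.11 in CEP, 8.44, 6.53 and 6.93 in 4SU, and 6.16, 4.41 and 6.59 in CEP+4SU. Both groups with CEP were below DMSO in every library, while the 4SU group overlapped CEP+4SU. Its CEP difference averaged over 4SU was -0.43 (SE 0.106, edgeR adjusted p = 0.0639), and -0.36 (adjusted p = 0.109) without the 2 libraries that stood apart. The opposite-strand gene FOXH1 overlaps it but averaged 0.247 CPM (counts scaled to library size) against 31.4 for KIFC2.

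With both compounds, 2 of 41 kinesins passed against DMSO, beside 290 of all genes (1.64%). KIF14 rose from 12.6 ± 0.310 to 16.1 ± 1.26 FPKM (SD, n = 3), a log2 fold change of 0.36 (SE 0.0855, edgeR adjusted p = 0.0433). KIFC2 fell from 8.83 ± 0.980 to 5.72 ± 1.15 FPKM, a log2 fold change of -0.63 (SE 0.150, edgeR adjusted p = 0.0437). Both values were close to the threshold. Each call was lost without any 1 of DMSO replicates 1, 2 or 3, 4SU replicates 2 or 3, or CEP+4SU replicates 2 or 3, with adjusted p-values up to 0.184 for KIF14 and 0.200 for KIFC2. Without the 2 libraries that stood apart, the log2 fold changes were 0.305 for KIF14 (adjusted p = 0.0561) and -0.47 for KIFC2 (adjusted p = 0.0877).

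Of the 14 mitotic kinesins, 12 were higher with both compounds than in DMSO, while KIF22 and KIFC1 were lower. An unadjusted p under 0.05 was reached by 8 of the 12, among them KIF4B with its few counts. Over the 41 kinesins an unadjusted p under 0.05 was reached by 11 that were higher and 4 that were lower, beside 10.5% and 10.8% of all genes. The median log2 fold change of the mitotic kinesins was 0.20, against 0.10 for transport kinesins, -0.05 for ciliary and other kinesins and 0.00 for all genes. The groups did not overlap for 14 kinesins that were higher and 5 that were lower, beside 14.1% and 14.6% of all genes. Among transport kinesins KIF3A, the partner of KIF3B, had the largest positive value at 0.32 (SE 0.0995, edgeR adjusted p = 0.0864), and the values of KIFC3, KIF1A and KIF1C were negative at -0.46, -0.28 and -0.19. Leaving out the 2 libraries that stood apart gave a mitotic median of 0.15 and 12 of 14 higher, 0.23 for KIF3A, and -0.30, -0.17 and -0.12 for KIFC3, KIF1A and KIF1C.

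The size of the shift differed between libraries. Set against the mean of DMSO, the median over 14 mitotic kinesins was 0.07, 0.27 and 0.05 on the log2 scale in CEP replicates 1, 2 and 3, and 0.13, 0.30 and 0.17 in the CEP+4SU replicates. The highest value of each group was that of the library with few genes detected. The 4SU libraries were at 0.03, 0.06 and 0.08, and the DMSO libraries were between 0.00 and 0.02. Transport kinesins had a smaller range over all libraries, from -0.06 to 0.12. Within DMSO (-0.06 to 0.05) and within 4SU (-0.06 to 0.04), however, they varied more than the mitotic kinesins.

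**Figure D1:**
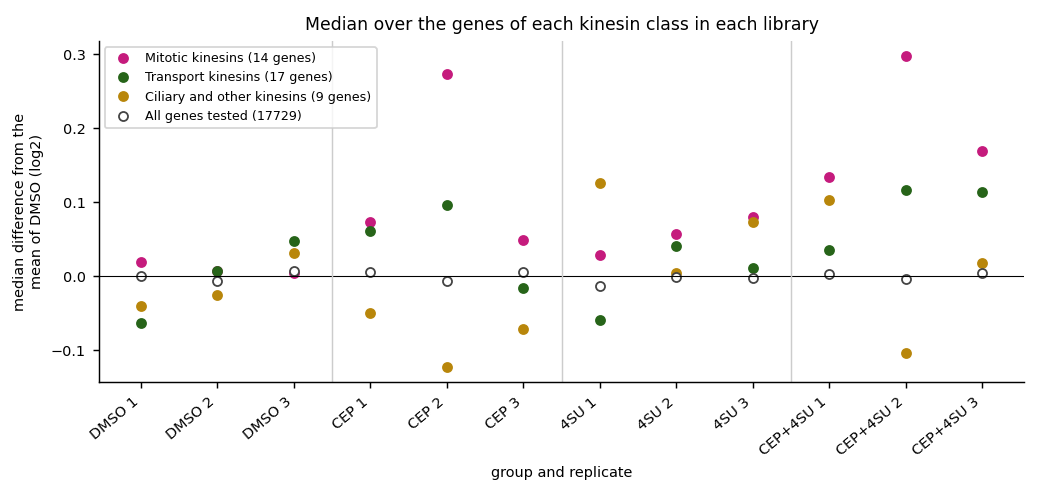
Median over the genes of each class of the log2 difference from the mean of the 3 DMSO libraries, in each library. The mitotic median was highest in replicate 2 of CEP (0.27) and of CEP+4SU (0.30), while the median of all 17729 genes stayed within 0.02 of 0.

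The CEP difference of a kinesin ran with the base composition of its transcripts. Mitotic kinesins had a median GC content of 43.8% and transport kinesins of 51.5%. Across the 41 kinesins the correlation between GC content and the log2 fold change of CEP averaged over 4SU was -0.68 (Pearson) and -0.85 (Spearman). Across all 17718 genes with a GC value it was -0.47 and -0.60. The points share the same 12 libraries, and genes are not independent replicates. Of 12 kinesins under 45% GC, 11 were higher with CEP, and of 14 at or above 55% GC, 13 were lower. The same split in all genes was 4821 of 5874 higher and 4829 of 5476 lower.

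Inside the mitotic and transport classes the order was much the same. The mitotic kinesins KIF20B (34.1% GC), KIF18A (37.1%) and KIF14 (37.6%) had the 3 largest values after KIF4B, and KIFC1 (56.3%), KIF22 (57.5%), KIF18B (60.4%) and KIF2C (49.8%) had the negative ones. Among transport kinesins KIF3A (38.5%) and KIF5B (39.3%) were at the top, and KIF17 (61.6%), KIFC3 (62.2%) and KIFC2 (68.0%) at the bottom. The Spearman correlation was -0.83 over 14 mitotic and -0.92 over 17 transport kinesins, and weaker, at -0.63, over 9 ciliary and other kinesins. The Pearson values were -0.43, -0.90 and -0.59, respectively. The kinesin-8 pair lay in the same order, with KIF18A giving 25.6% ± 1.42 of their summed FPKM in DMSO and 30.3% ± 4.03 in CEP (SD, n = 3).

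After a smooth trend of counts against GC content was removed from each library, most of these differences became small. The median over mitotic kinesins went from 0.15 to 0.06 for CEP averaged over 4SU, and from 0.20 to 0.08 for CEP+4SU against DMSO. KIF14 and KIFC2 had CEP+4SU log2 fold changes of 0.15 and -0.23 and no longer passed (adjusted p = 0.279 and 0.317). KIF18B, which depolymerizes astral microtubules, passed instead. Its value with both compounds moved from 0.06 to 0.27 (adjusted p = 0.0306).

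4SU alone changed no kinesin by the edgeR test, with 0 of 41 passing beside 1 of all genes (0.00564%). At an unadjusted p under 0.05, KIF5A and KIF15 were higher and KIF1A and KIF1C lower, beside 2.78% and 3.72% of all genes. The same 2 genes above and 2 genes below were those whose groups did not overlap, beside 7.58% and 10.3% of all genes. DESeq2 called none. The medians were 0.05 for mitotic, 0.00 for transport and 0.13 for ciliary and other kinesins, and -0.0073 for all genes. Of the 41, 26 were higher and 15 lower, a split that became 32 to 9 when libraries were scaled by library size alone. All genes moved in the same direction, from 8545 higher and 9184 lower to 10810 higher and 6919 lower. All comparisons with DMSO share the same 3 DMSO libraries.

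Averaged over CEP, so that 6 libraries with 4SU were set against 6 without, 1 of 41 kinesins passed, beside 99 of all genes (0.558%). An unadjusted p under 0.05 was reached by 3 that were higher and 2 that were lower, beside 5.66% and 6.95% of all genes. The split was 23 higher to 18 lower, and 31 to 10 with library size alone. Over all genes it was 8749 to 8980, and 10967 to 6762 with library size alone. The 1 call was KIF5A, the heavy chain of kinesin-1 found mainly in neurons (chr12:57549998-57586632). It was at 4.69, 4.71 and 5.29 FPKM in DMSO, 4.73, 3.97 and 4.22 in CEP, 6.10, 5.83 and 6.05 in 4SU, and 5.59, 5.99 and 5.85 in CEP+4SU. All 6 libraries with 4SU were above all 6 without it, which held for no other kinesin and for 0.491% of all genes in this direction (0.863% in the other). KIF5A rose by a log2 fold change of 0.36 (SE 0.0686, edgeR adjusted p = 0.0235), 1.28-fold.

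Removing the GC trend left the KIF5A difference in place. Its transcripts are at 52.4% GC, and the log2 fold change was then 0.37 (adjusted p = 0.00128). Without the 2 libraries that stood apart it was 0.32 (adjusted p = 0.0237). The call was lost without DMSO replicate 1, 2 or 3, 4SU replicate 2 or 3, or CEP+4SU replicate 3, where the log2 fold change lay between 0.34 and 0.39 and the adjusted p between 0.0513 and 0.110. As a share of the 3 kinesin-1 heavy chains KIF5A was 9.36% ± 0.535 in DMSO, 7.31% ± 0.987 in CEP, 11.2% ± 0.619 in 4SU and 10.0% ± 0.385 in CEP+4SU (SD, n = 3). Its relatives did not pass with 4SU, with log2 fold changes of -0.03 (SE 0.0517) for KIF5B and -0.05 for KIF5C.

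KIF15, a spindle motor that can stand in for KIF11 (chr3:44761717-44873376), was next. It was at 8.42, 8.54 and 8.49 FPKM in DMSO, 9.37, 11.5 and 9.11 in CEP, 9.74, 10.7 and 11.6 in 4SU, and 10.1, 13.3 and 10.7 in CEP+4SU. The DMSO libraries were the lowest 3 of the 12. Its 4SU difference averaged over CEP was 0.26 (SE 0.0788, edgeR adjusted p = 0.153). After the GC trend was removed it was 0.23 with an adjusted p of 0.0251, and without the 2 libraries that stood apart 0.25 with an adjusted p of 0.0455. With both compounds against DMSO it was 0.42 (SE 0.111, edgeR adjusted p = 0.0577), the largest positive value after KIF4B, and 0.295 without those libraries (adjusted p = 0.106). The same-strand gene TMEM42 overlaps KIF15 and averaged 13.97 CPM against 54.0.

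KIF1A, the axonal carrier of synaptic vesicle precursors (chr2:240713761-240821036), was at 14.2, 15.3 and 14.8 FPKM in DMSO, 14.2, 13.8 and 12.6 in CEP, 13.7, 12.2 and 11.9 in 4SU, and 12.5, 10.4 and 13.7 in CEP+4SU. Every library with 4SU was below every DMSO library, and the CEP libraries lay across both. Its 4SU difference averaged over CEP was -0.20 (SE 0.0648, edgeR adjusted p = 0.181), and that of KIF1C was -0.17 (SE 0.0598, edgeR adjusted p = 0.224). Neither passed, and without the 2 libraries that stood apart they were -0.13 and -0.14.

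**Figure D2:**
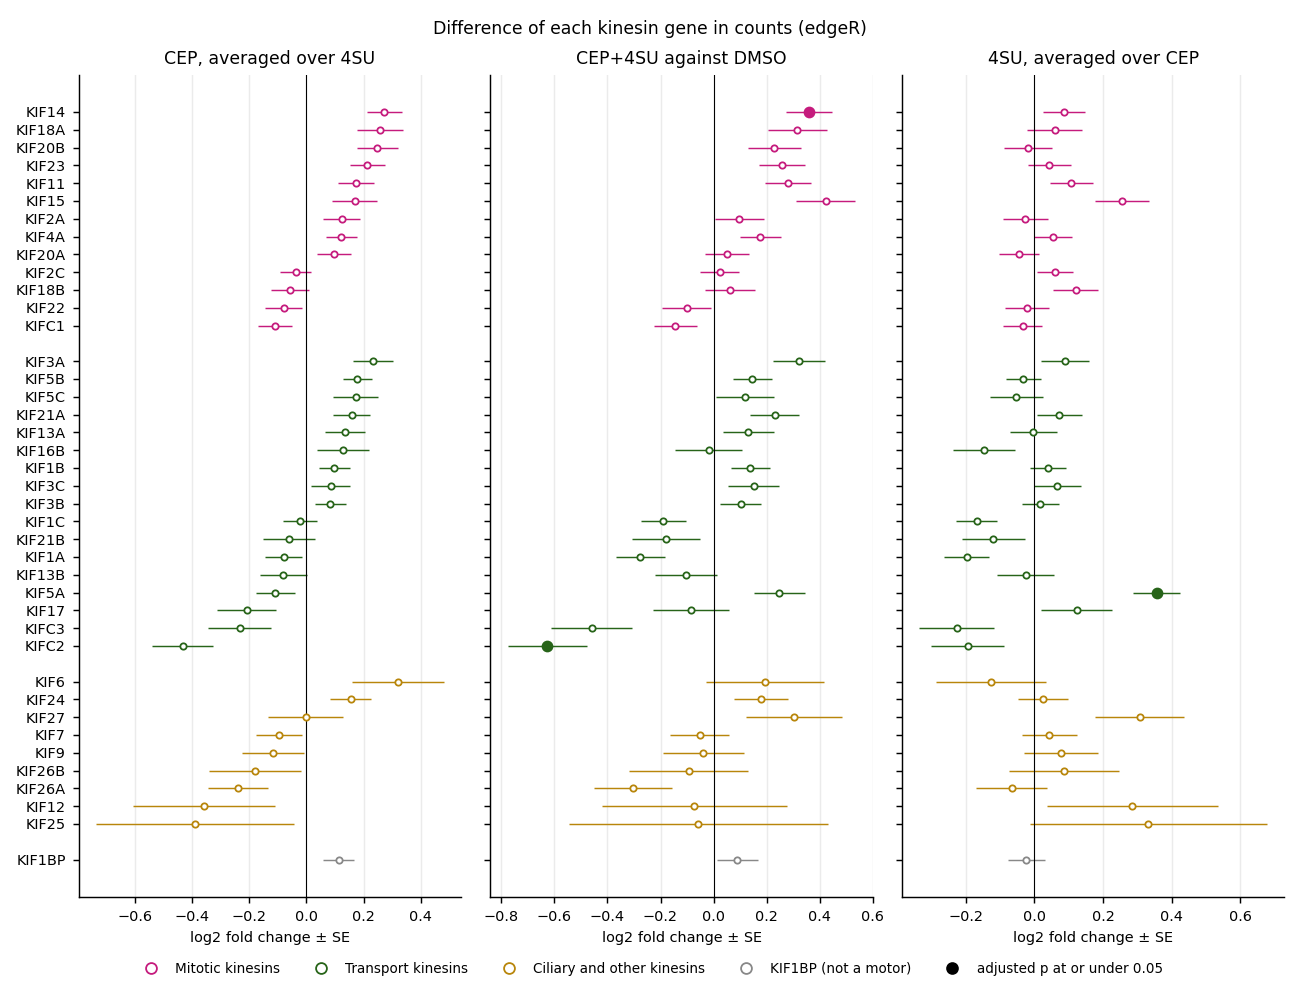
Log2 fold change with its SE of 40 kinesins in 3 comparisons, ordered within each class by the first, with filled points for an adjusted p at or under 0.05 (KIF4B is left out, at 1.04, 1.67 and 0.63). The filled points are KIF14 (0.36) and KIFC2 (-0.63) with both compounds and KIF5A (0.36) with 4SU.

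Whether the CEP difference depended on 4SU was tested as an interaction, and 0 of 41 kinesins passed, beside 0 of all genes (0%). None had an unadjusted p under 0.05, beside 2.63% of all genes, and DESeq2 called none. The smallest p-values were those of KIF7, KIF18B and KIF26A. KIF7 (chr15:89608789-89655451) was at 13.9, 14.03 and 14.9 FPKM in DMSO, 13.7, 11.1 and 11.5 in CEP, 15.6, 11.6 and 13.1 in 4SU, and 15.3, 12.1 and 13.8 in CEP+4SU. Its interaction was 0.27 (SE 0.160) on the log2 scale, and the second replicate was the lowest of each treated group.

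KIF18B (chr17:44924709-44947711) was at 18.1, 19.7 and 18.9 FPKM in DMSO, 19.3, 16.7 and 15.2 in CEP, 20.5, 18.7 and 19.1 in 4SU, and 21.6, 17.8 and 19.8 in CEP+4SU, with an interaction of 0.18 (SE 0.134). KIF26A (chr14:104138723-104180894) was at 10.0, 9.47 and 11.03 FPKM in DMSO, 10.1, 6.79 and 6.61 in CEP, 9.99, 8.25 and 8.45 in 4SU, and 9.36, 6.56 and 8.83 in CEP+4SU, with an interaction of 0.27 (SE 0.208). Set against DMSO the groups of both genes overlapped, apart from CEP+4SU for KIF26A. The remaining kinesins had interactions between -0.90, that of KIF4B, and 0.31.

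KIF4B had the largest fold changes of all kinesins, with 1.67 (SE 0.664) on the log2 scale for both compounds, and did not pass (edgeR adjusted p = 0.159). It was at 0.0200, 0.0671 and 0.0468 FPKM in DMSO, 0.132, 0.0933 and 0.150 in CEP, 0.0482, 0.121 and 0.119 in 4SU, and 0.0609, 0.163 and 0.205 in CEP+4SU. These levels rest on few counts.

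The partners of the kinesins and the genes that share their roles were read in the same way. Of 12 kinesin light chain and adaptor genes, which link kinesin-1 and other motors to cargo, none passed in any comparison, and the median for CEP averaged over 4SU was -0.15, with 4 higher and 8 lower. KIDINS220 and TRAK2, adaptors of neuronal and mitochondrial cargo, had the smallest p-values there, with log2 fold changes of 0.17 and 0.20 (0.074 and 0.076 after removal of the GC trend). Of cytoplasmic dynein and dynactin, the motor that runs toward the minus end, 23 of 24 genes were tested, none passed, and the median was 0.055, led by DCTN4 (0.18) and DYNLT3 (0.20), which were at 0.10 and 0.069 without the GC trend. Among 30 other genes of G2 and M phase 23 were higher with CEP and the median was 0.08. The only call among them was NDC80, a kinetochore subunit, with both compounds, beside 1.64% of all genes. Its log2 fold change was 0.40 (SE 0.0988, edgeR adjusted p = 0.0492), and 0.24 after removal of the GC trend. CENPE, the kinetochore kinesin whose symbol lies outside the rule, was higher with CEP by 0.33 on the log2 scale (SE 0.0717) and did not pass (edgeR adjusted p = 0.0507), and ANLN, a scaffold of the cytokinetic ring, followed at 0.22. After removal of the GC trend CENPE was at 0.14 (adjusted p = 0.291) and ANLN at 0.078 (adjusted p = 0.554). Of 20 S phase genes 11 were higher with CEP, none passed, and the median was 0.02, with CDT1 at -0.20 and DTL at 0.17. Without the GC trend CDT1 changed sign, to 0.065, and DTL was at 0.049. None of the 6 HEK293T markers passed in any comparison, nor did MLANA and GFAP, which were the only 2 of the 9 markers of other cell types with enough counts to test.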

How the data were processed

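Poly(A) RNA-seq libraries of HEK293T, 4 groups of 3, were grouped by the sample titles. Per the labels, the deposited counts come from HISAT2 2.0.5 and featureCounts 1.5.0-p3 on GRCh38, one whole-number count per gene with no normalization. The authors also deposited FPKM values per gene and library, used here for levels. Their table of mean FPKM per group was not used. The strand setting of the counting is not given in the sources used here, so reads of overlapping genes could not be told apart. Identifiers and coordinates of all 43 kinesin genes matched GENCODE 29.

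Counts were tested with edgeR 4.0.16 (R 4.3.3): TMM factors, filterByExpr (minimum count 10, total 15), glmQLFit and glmQLFTest on the 4 group means of all 12 libraries, and Benjamini-Hochberg adjustment over 17729 genes. The code was tested on simulated counts. Alternatives used DESeq2 1.42.0, limma 3.58.1 on log2(FPKM + 1) and log2(FPKM + 0.1), other filters and normalizations, GC or length trends removed, and each library left out. The GC content is that of all annotated transcripts of a gene.

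The rule for the genes given with the value in every library was: an adjusted p at or under 0.05 in any comparison, the 3 smallest unadjusted p-values per comparison, and the 3 highest mean FPKM of the mitotic and of the transport class and the highest of the others. From each list of related genes, calls were named, and the 2 genes of lowest unadjusted p in the 4SU-averaged CEP comparison. KIF4B, KIF3A, KIF18A, KIF23, KIF5C, KIFC3 and the low members were named after their values were seen. Members, classes, gene lists and tests were chosen with earlier results of these data known.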

Additional observations from a re-analysis of the deposited data

How the results depend on the processing

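Of 423 alternative values for the 18 single-gene results none changed sign, 30 lost a call and 35 gained one. KIF14 with both compounds passed in 13 of 24 alternatives (adjusted p 0.00418 to 0.279), KIFC2 in 13 of 24 (2.96e-05 to 0.317) and KIF5A with 4SU averaged over CEP in 15 of 23 (0.000403 to 0.110). For both compounds against DMSO the 2 calls became 6 with DESeq2 (3.2% of all genes in that fit), 7 without a low-count filter (3.46%), 1 with the GC trend removed (1.19%) and 0 with limma on either pseudocount (0.118% and 0.135%). CEP against DMSO went from 0 calls to 1 with DESeq2 (0.553%) and 2 without a filter (1.86%). CEP averaged over 4SU went from 0 to 7 (4.14%) and 6 (4.06%). The shares with DESeq2 or without a filter are over 35634 genes, which include genes under the low-count filter. 4SU against DMSO went from 0 to 1 with only its 2 groups in the fit (0.557%). 4SU averaged over CEP went from 1 to 2 without a filter (0.873%), 3 with the GC trend removed (3.78%) and 0 with limma (0.164% and 0.147%). Leaving out each library in turn gave 0 to 5 calls for CEP against DMSO (5 without CEP replicate 1, 6.61%), 0 to 3 for both compounds, 0 to 9 for CEP averaged over 4SU (9 without CEP replicate 1, 11.8%, and 7 without CEP+4SU replicate 1, 6.16%) and 0 to 1 for 4SU averaged over CEP. Leaving out CEP replicate 2 and CEP+4SU replicate 2 together, an alternative chosen after seeing the data, gave 0 calls for both compounds (0.863%) and 2 for 4SU averaged over CEP (KIF5A and KIF15, 1.23%). The cause of these changes was not tested.

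Class medians moved by more than their spread between replicates in few alternatives. This spread, an SD within groups, was 0.076 for mitotic and 0.053 for transport kinesins. The 4SU medians of both classes were smaller than it, so this comparison could not show their loss. With the GC trend removed the mitotic median was 0.061 for CEP against DMSO, 0.082 for both compounds and 0.060 for CEP averaged over 4SU, and the transport median was 0.037 for both compounds. With the length trend removed the transport median was 0.016 for CEP against DMSO and 0.028 for CEP averaged over 4SU. With library size alone it was 0.059 for 4SU against DMSO. For CEP averaged over 4SU it ran from 0.025 (without CEP replicate 2) to 0.090 when each library was left out, and was 0.028 without both libraries that stood apart.

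Replicate numbers are shared by the groups, and whether they pair the libraries was not settled here. The main fit had no term for them. The correlation of deviations between same-numbered libraries was -0.05 to 0.14, above 0.1 in 1 of 18 pairs. Between libraries with other numbers it was -0.16 to 0.06, and 7 of 12 libraries matched best with their own number. With the replicate block the calls were 4 for CEP against DMSO (4.4% of all genes), 8 for both compounds (9.4%) and 9 for CEP averaged over 4SU (12.8%), and 1 (KIF5A) for 4SU averaged over CEP (1.9%).

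Depth limited KIF2B, KIF19, KIF4B and KIF25, which had at most 29 counts in any library, and differences of their size were not detectable.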

Other observations

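Of the 7 other genes whose names match the pattern, KIF9-AS1, antisense to the ciliary KIF9, had 52 to 109 counts per library (0.566 to 0.973 FPKM), and the pseudogene KIF28P had 1 to 16 counts. KIF26B-AS1 and KIF25-AS1 reached at most 2 counts, and KIF3AP1, KIF4CP and KIF18BP1 had 0 counts in all libraries. KIF9-AS1 overlaps KIF9 on the opposite strand, and averaged 3.99 CPM against 8.51 for KIF9. The protein-coding KLHL18, also on the opposite strand of KIF9, averaged 68.3 CPM. Protein-coding genes also overlapped KIF7 (TICRR, 70.4 CPM against 67.5), KIF18A (METTL15, 32.5 against 33.4) and KIF24 (UBAP1, 64.3 against 22.3). The same held for KIF20A (CDC23 138 and BRD8 99.9, against 103), KIF2A (IPO11 94.0 and DIMT1 89.8, against 121) and KIF4A (PDZD11 37.4, against 124).

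KIFAP3, the non-motor subunit that joins KIF3A and KIF3B in kinesin-2, was at 8.504 to 11.9 FPKM. Its log2 fold change for both compounds against DMSO was 0.25 (SE 0.0946) and did not pass (edgeR adjusted p = 0.139). KIF3A gave 34.5% ± 1.67 of the summed FPKM of KIF3A, KIF3B and KIF3C in DMSO and 37.8% ± 2.29 in CEP+4SU (SD, n = 3), and KIF3B gave 48.8% ± 1.05 and 46.0% ± 1.59.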
